A study of Mus musculus with 15 samples.

Results

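The genes described here are 105 of the 13081 genes tested in cultured mouse spermatogonial stem cells, the cells from which the male germline is renewed. They were lower after 18 h without the growth factor GDNF and its co-receptor GFRalpha1, and they had made good much of that fall 2 h after both were given back. Members were chosen on log2(signal + 16). The mean after withdrawal had to lie at least 0.7 below the maintained mean, all 3 withdrawal arrays had to lie below all 3 maintained arrays, and the restored share at 2 h had to be at least 0.5. The restored share is the rise above withdrawal divided by the fall on withdrawal, so 0 is the withdrawal level and 1 the maintained level. In all, 353 genes met the first 2 conditions, and 248 of them had not come back that far at 2 h. The maintained, withdrawal and 2 h arrays therefore chose the genes, and values on them are given as a description with no test.

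The arrays fall into 5 groups of 3. The germ cells came from C57BL/6 male mice aged 6 days. Maintained cultures grew throughout in serum-free medium with GDNF, GFRalpha1 and bFGF. Withdrawal cultures were held for 18 h in the absence of GDNF and GFRalpha1, and 3 further groups then had both back for 2 h, 4 h or 8 h. The labels name bFGF for the maintained cultures, and do not say whether it stayed in the medium of the other groups. No group was handled alike without receiving the factors, so their return and the handling or extra hours that came with it cannot be told apart. Whether replicates came from separate cultures is not stated in the labels, so p-values measure only the spread between these arrays, which may be technical. Values are MAS5 signal, a linear intensity in arbitrary units that the authors had scaled to 1 trimmed mean on every array.

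GDNF binds GFRalpha1, and the pair activates the receptor tyrosine kinase RET. RET passes the signal on through RAS to the kinase ERK, through PI3K to AKT, and through SRC family kinases, and spermatogonial stem cells in culture need it to renew themselves. ERK signalling switches on immediate-early genes, which need no new protein to be transcribed. Some of them encode transcription factors, and others, such as the Dusp and Sprouty genes, encode inhibitors that feed back on the same pathway. ETS factors of the PEA3 group are transcribed in response to ERK in many tissues.

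1 array stood apart before any comparison. Withdrawal replicate 3 had a higher signal from the 3' than from the 5' control probe sets of beta-actin, by a ratio of 2.77, where the other 14 arrays ran from 1.10 to 1.75. Its ratio for GAPDH was 1.77 against at most 1.05. It was the lowest of the 3 withdrawal arrays for 64 of the 105 genes (61.0%), for 61.3% of the other lowered genes and for 41.5% of all genes. Left out, the rule found 100 genes, of which 62 were among the 105. Results are therefore given with the count of genes that met the rule without that array. The germ cell label was borne out by its markers: all 12 germ cell genes were above the filter on dim probe sets, and the median signal of Dazl, a germ cell RNA-binding protein, was 6405.5. Fibroblast markers were present as well, with 15 of 18 above the filter. Their summed signal was 10154 to 13034 in maintained cultures, 9362 to 14381 after withdrawal, with the highest value in replicate 3, and 6099 to 10533 at 2 h, and it rose to 16812 to 20082 at 4 h and 16677 to 20411 at 8 h. Summed mast cell markers rose from 1247 to 1571 in maintained cultures to between 2913 and 4840 at 8 h. In such bulk RNA, fewer cells of a type and less RNA per cell cannot be told apart. None of the fibroblast or mast cell markers was among the 105 genes.

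Across the 105 genes the median log2 difference of withdrawal against maintained cultures was -0.93, with a range from -2.32 to -0.70, and 41 genes fell by at least 1 on the log2 scale. The median restored share was 0.647 at 2 h, 0.737 at 4 h and 0.750 at 8 h. Among the 248 lowered genes outside the set the medians were 0.265, 0.550 and 0.473, and the 2 h value of both sets is fixed by the rule. The shares at 4 h and 8 h use the withdrawal and maintained means that chose the genes, so they too are only a description. By this measure most genes held much of the early gain, but not every gene did. A share of at least 0.5 was kept at both later times by 63 genes, at 4 h alone by 15, at 8 h alone by 15 and at neither by 12. The highest of the 3 replacement means lay at 2 h for 31 genes, at 4 h for 36 and at 8 h for 38. Return was complete, with a share of 1 or more, for 11 genes at 2 h, 19 at 4 h and 15 at 8 h.

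**Figure D1:**
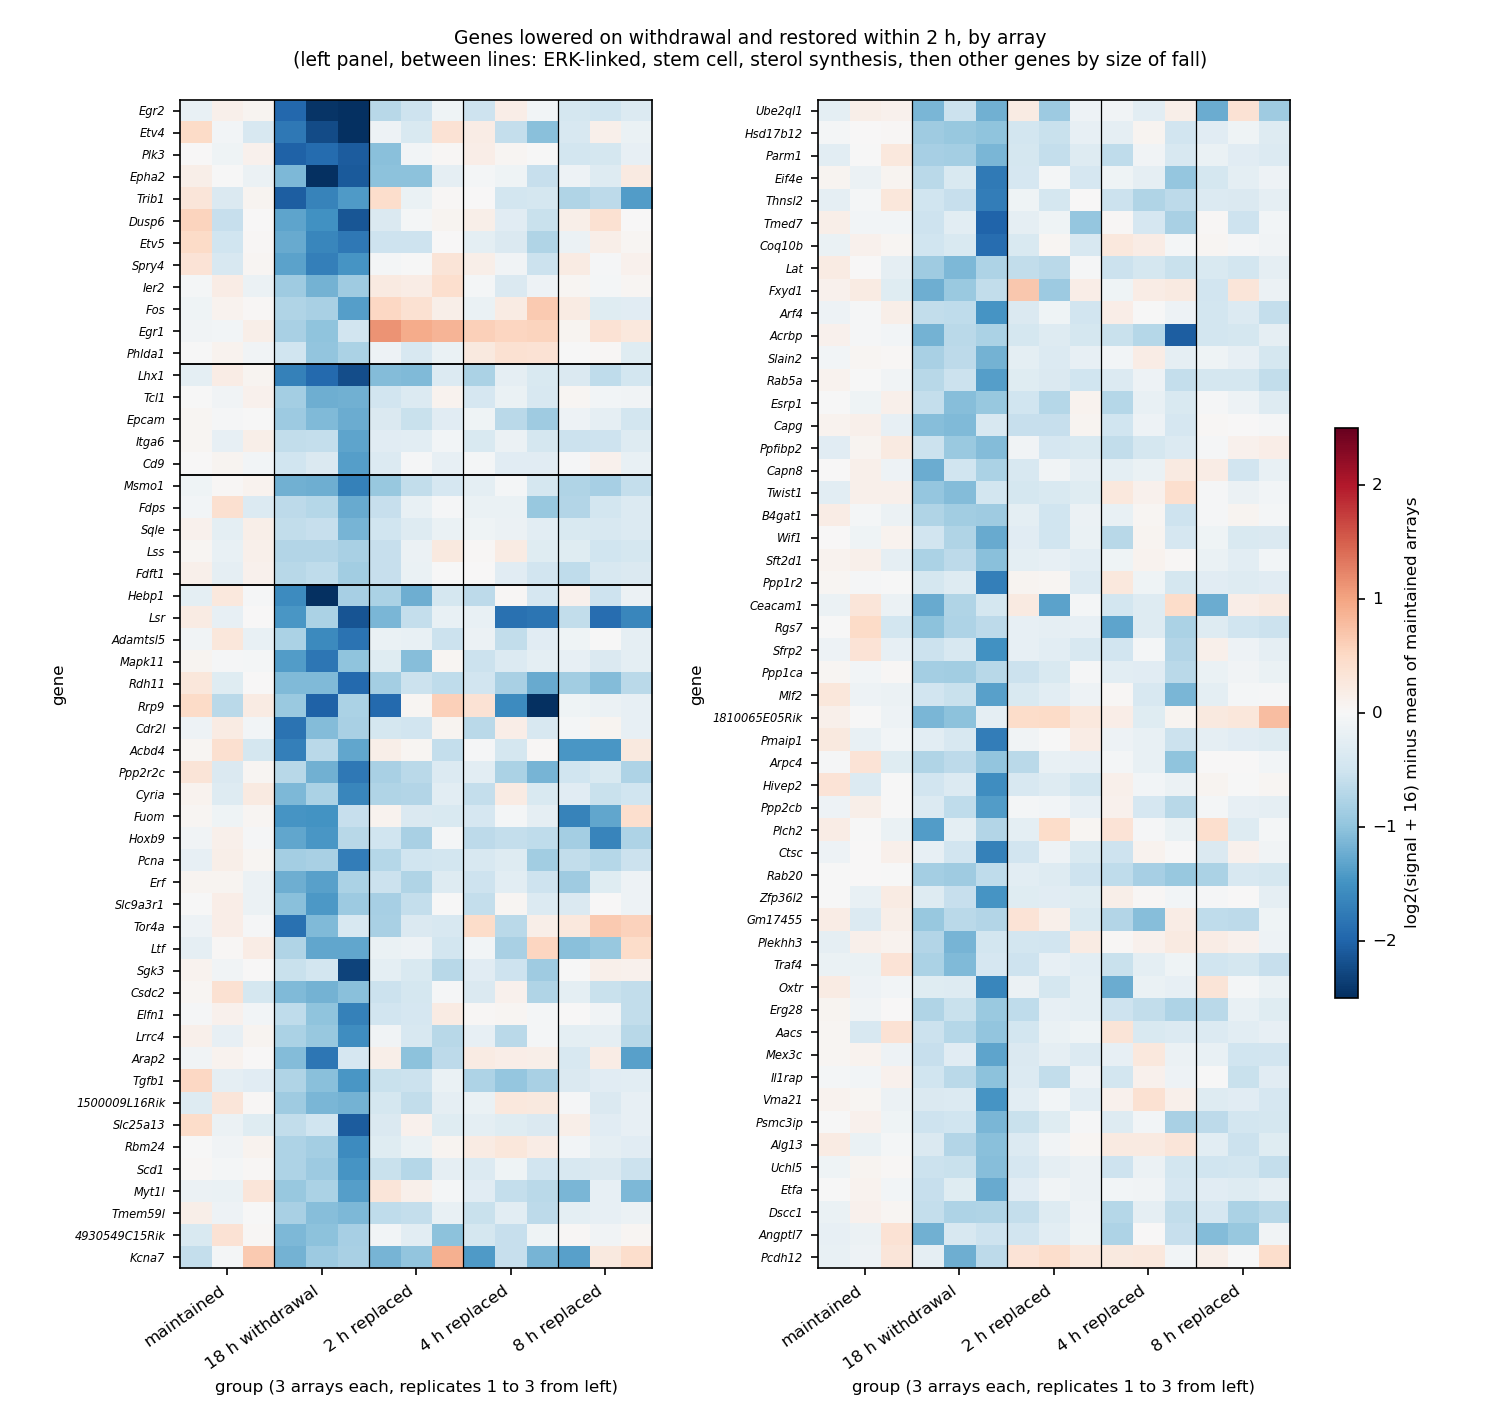
Each row is 1 of the 105 genes and each column 1 array, in 5 groups of 3; colour is log2(signal + 16) minus the mean of the maintained arrays, blue below it and red above it, and the colours stop at 2.5. The withdrawal columns are blue in every row, Egr1 is red in all 3 columns at 2 h, and withdrawal replicate 3 is darker than its neighbours in many rows of the right panel.

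Counts in comparisons that share arrays with the rule describe the members and support nothing by themselves. On withdrawal, limma called 80 of the 105 genes lower at an adjusted p under 0.05, where 3.83% of all genes were called lower and 10.7% had all withdrawal arrays below all maintained arrays, which the rule asked of every member. At 2 h against withdrawal 12 were called higher, against 0.115% of all genes, and for 70 genes all 3 arrays at 2 h lay above all 3 withdrawal arrays, against 5.59%. At 4 h against withdrawal 36 were called higher (1.74% of all genes) and at 8 h 34 (1.3%), and the arrays did not overlap for 66 (8.76%) and 72 genes (10.4%). At 8 h, 40 genes still had all 3 arrays below all 3 maintained arrays, where 10.8% of all genes did, and 2 genes had them above, where 15.8% did. Between 2 h and 4 h, 10 genes had all arrays of 4 h above those of 2 h (10.7% of all genes) and 11 had them below (9.28%), and 1 was called higher (1.69%). The genes just inside the share threshold were Cyria, Il1rap and Hivep2, with shares of 0.503, 0.504 and 0.506. Just outside were Mtfr1, Gfra1 and Itprid2, with 0.494, 0.493 and 0.492, so the co-receptor's own gene missed the set narrowly. At the threshold on the fall, Pcdh12, Angptl7 and Dscc1 lay inside at -0.701, -0.704 and -0.704, and Abr, Dusp7 and Stard4 outside at -0.698, -0.695 and -0.690.

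Genes tied to ERK signalling made up 12 of the 105. They came from 3 lists, on immediate-early factors (6 of 34 tested), ERK feedback (4 of 20) and PEA3 factors (2 of 2, Etv4 and Etv5). All 12 met the rule without withdrawal replicate 3. Other settings removed some of them. Egr1 dropped out with quantile normalization and with some other single arrays left out, Epha2 without 2 h replicate 3 and Phlda1 with a constant of 64. Their median restored share was 0.955 at 2 h, 0.884 at 4 h and 0.949 at 8 h. In each of the 12 all arrays at 2, 4 and 8 h lay above all withdrawal arrays. Taken time by time, that held for 70, 66 and 72 genes of the set and for 5.59%, 8.76% and 10.4% of all genes. The withdrawal and 2 h arrays chose the genes, so this is a description.

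Egr1, a zinc finger factor that is among the first genes transcribed after growth factor signals, overshot most. Its signal was 2314, 2340.4 and 2715 on the maintained arrays, 1389, 1212 and 1743 after withdrawal, and 5355, 4657 and 4442 at 2 h. It then stood at 3733, 3577 and 3589 at 4 h and at 2579, 3155 and 2934.5 at 8 h. Every array at 2 h and 4 h was above every maintained array, whereas the 8 h arrays overlapped with them. The restored share went from 2.26 at 2 h to 1.74 at 4 h and 1.30 at 8 h. Its level at 8 h was below that at 4 h by a log2 of 0.33 without passing the test (log2 difference -0.33, SE 0.14, adjusted p = 0.307), although the arrays of the 2 times did not overlap.

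Fos, the AP-1 subunit, followed the same course with more spread. It was at 645, 740.2 and 713 in maintained cultures, at 405, 389.7 and 260.2 after withdrawal and at 1002, 919 and 779 at 2 h. At 4 h the arrays ranged from 624 to 1103 and at 8 h from 561 to 810.5. The 2 h arrays all lay above the maintained ones, and those of 4 h and 8 h overlapped with them. Ier2, an immediate-early nuclear protein, stood at 448.5 ± 54.7 (SD, n = 3) in maintained cultures, 219 ± 27.6 after withdrawal and 544 ± 49.6 at 2 h. It was back at 394 ± 44.3 and 450.5 ± 16.3 at 4 h and 8 h. Egr1, Fos, Ier2, Trib1 and Spry4 were the 5 of the 12 whose mean at 2 h reached or passed the maintained mean.

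Egr2, a zinc finger factor of the same family as Egr1, had the largest fall of all 105 genes, 4.99-fold. Its signal was 876, 1097 and 1046 in maintained cultures and 245, 171 and 158 after withdrawal. It returned to 616, 693 and 934.5 at 2 h, 695, 1126 and 959.9 at 4 h and 731, 706 and 792 at 8 h. The replacement arrays were well above withdrawal at each time, and at 8 h all 3 lay below the maintained arrays (share 0.817). Egr2 thus differed from Egr1 in returning towards its maintained level without passing it.

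Plk3, a polo-like kinase gene induced early by growth factors and stress, fell below the level of the dimness filter. It went from 78.4 ± 6.65 to 7.47 ± 1.36 and was at 29.5, 74.2 and 80.4 at 2 h, so 1 of the 3 arrays at 2 h lagged. At 4 h it had 83.1 ± 6.05. Trib1, a pseudokinase that guides a ubiquitin ligase to its targets, was at 12.2 ± 6.26 after withdrawal against 76.4 ± 20.9, and at 82.8 ± 21.6, 59 ± 14.4 and 32.7 ± 12.6 at 2, 4 and 8 h. Its restored share, 1.06 at 2 h, was 0.455 at 8 h, and it was the 1 gene of the 12 with a share under 0.5 at that time. Both genes lay under a signal of 30.5, the level of the dimness filter, after withdrawal, and at that level the constant of 16 sets much of a fold. Phlda1, an immediate-early protein with a pleckstrin homology-like domain, was highest at 4 h, as were Egr2 and Plk3. It was at 414.5 ± 41 at 2 h, 619.8 ± 32.5 at 4 h and 460.2 ± 56.8 at 8 h against 489.5 ± 30.6 in maintained cultures.

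The feedback inhibitors Dusp6 and Spry4 returned close to the maintained level and stayed there. The rule asked for a share of at least 0.5 at 2 h, and other lowered inhibitors, given below, were not back then. Dusp6, the phosphatase that inactivates ERK in the cytoplasm, was at 1576, 712 and 1080.0 in maintained cultures, 419.6, 364 and 229 after withdrawal and 827, 1024 and 1126 at 2 h. At 8 h it was at 1187, 1386 and 1075. The maintained arrays spread by more than the replacement groups did, and no replacement array of Dusp6 came down to the highest withdrawal array. Spry4, a Sprouty inhibitor of receptor tyrosine kinase signalling, went from 349 ± 89.8 to 111 ± 16.1 and was at 368 ± 56.7, 309 ± 74.7 and 366 ± 32.9 at 2, 4 and 8 h. Epha2, a receptor tyrosine kinase for ephrin-A ligands, came back more slowly. It was at 268 ± 28.7 in maintained cultures, 63.5 ± 45.4 after withdrawal and 157 ± 60 at 2 h, then 226 ± 46.2 and 257 ± 53.6.

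Etv4 and Etv5 were the PEA3 factors with a probe set above the filter. Of the 3 replacement times, Etv4 was highest at 2 h and Etv5 at 8 h. Etv4 was at 376, 255 and 197 in maintained cultures, 65.9, 43.7 and 26.9 after withdrawal and 242, 201 and 349 at 2 h. Etv5, which stem cells need for self-renewal, was at 1486, 747 and 1090.2, then at 434, 331.5 and 297, and at 739, 743 and 1078 at 2 h. For both genes the 2 h arrays overlapped with the maintained ones and not with withdrawal. At 8 h the restored share was 0.935 for Etv4 and 1.01 for Etv5. All 3 arrays of Etv5 at 8 h, 966, 1187.5 and 1103, lay above the 3 at 4 h, 896, 831 and 623.5, by a log2 of 0.47 that did not pass the test (SE 0.22, adjusted p = 0.333).

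Other genes of these lists fell on withdrawal and were not back at 2 h. Of the 34 immediate-early genes, limma called 14 lower and 1 higher on withdrawal, where 3.83% and 4.21% of all genes were. Their median log2 difference was -0.32, against 0.06 over all genes, and 5 met the first 2 conditions without being restored at 2 h. Bhlhe40, a clock-linked repressor, had a share of 0.0412 at 2 h and 0.901 at 4 h, and Ier3 had 0.124 and 0.648. Of the 20 feedback genes, 11 were called lower and 1 higher (median -0.71) and 6 were lowered but not restored at 2 h. Among these, Spry2 had a share of 0.164 at 2 h, Spred1 0.328 and Dusp4 -0.00123. The early return was therefore not shared by all Sprouty, Spred and Dusp genes measured; the difference between them was not tested.

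**Figure D2:**
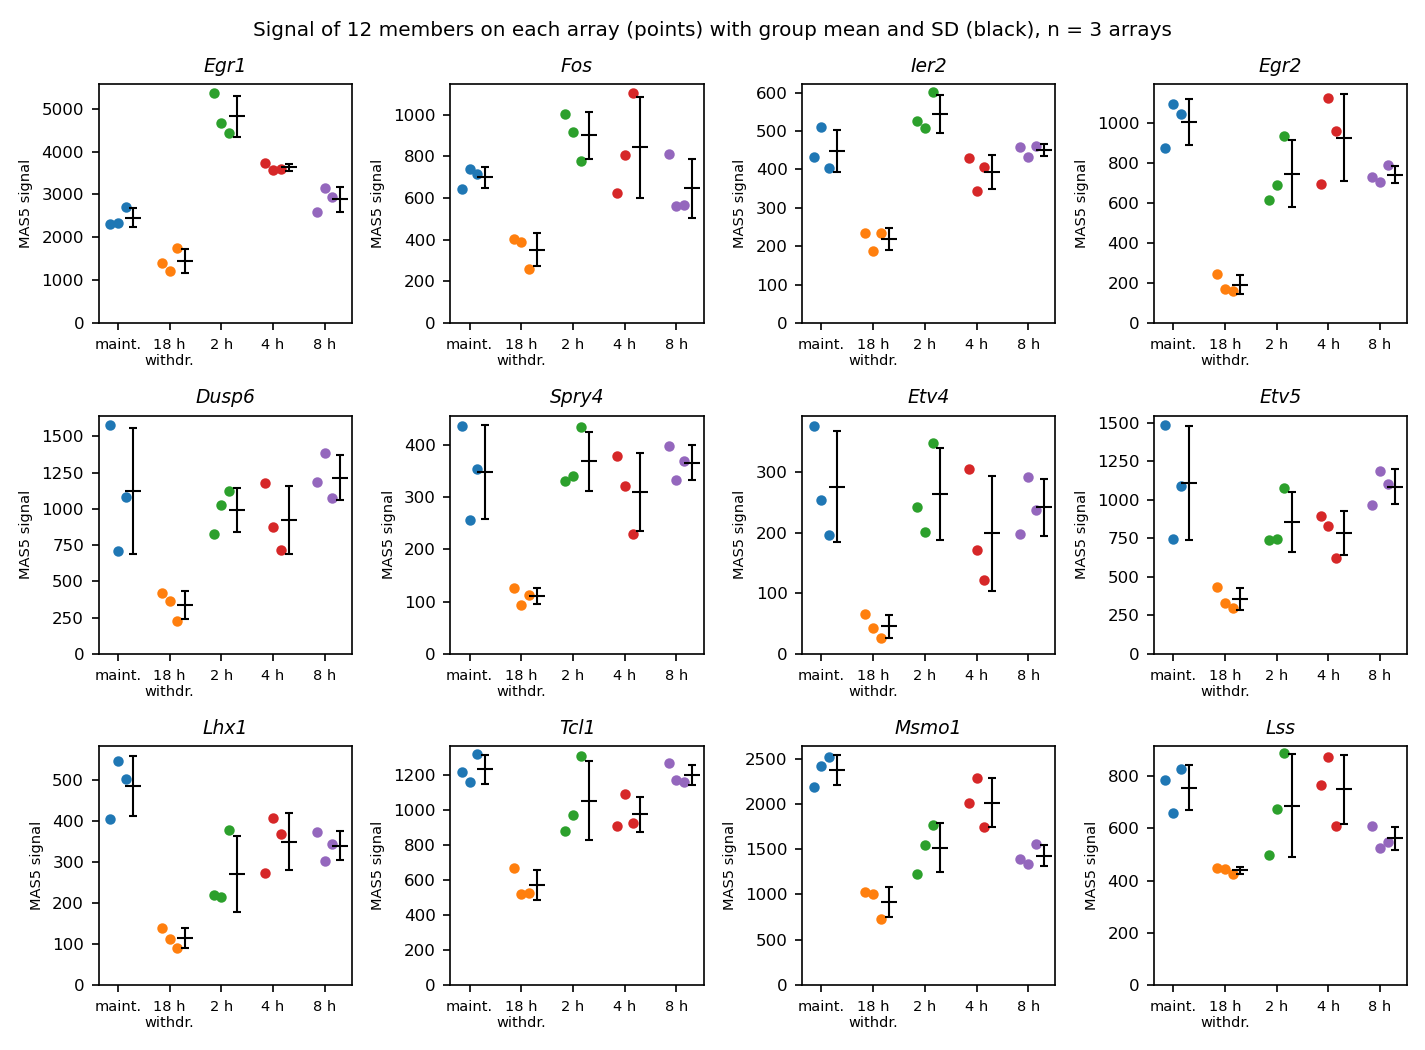
MAS5 signal (arbitrary units, linear axis from 0) of 12 genes on each array, with coloured points for the 3 arrays of a group and black bars for the mean and SD. Egr1, Fos and Ier2 pass the maintained level at 2 h, Egr2, Lhx1 and Msmo1 climb part of the way, and the Lss and Msmo1 points at 8 h lie below those at 4 h.

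Promoter sequence was not used by the rule and was read from RefSeq windows on GRCm38.p6 of 300 bases, 250 before the annotated start and 50 after. A window was held for 79 of the 105 genes, for 179 of the 248 lowered genes outside the set and for 10568 of all genes tested. None was held for Egr1, Ier2, Trib1, Spry4, Phlda1 and Etv4, or for the sterol synthesis genes Fdps, Sqle and Fdft1, described below. The motif shares therefore do not cover these genes. The cAMP element core TGACGT, searched on both strands, was in 13 windows of the set (16.5%), in 7.26% of those of the other lowered genes and in 11.4% of all. The full palindrome TGACGTCA, which contains the core, was in 5 (6.33%), 0.559% and 3.04%. The AP-1 site TGANTCA was in 8.86%, 2.23% and 5.05%, and the E-box CACGTG in 16.5%, 8.94% and 10.1%. The ETS site CCGGAAG was in 11.4%, 10.6% and 17.0%. The EGR sites GCGGGGGCG or GCGTGGGCG were in 6.33%, 7.26% and 6.41%, the SRF CArG box in 2.53%, 1.12% and 1.23%, and the sterol element TCACNCCAC in 1.27%, 1.12% and 1.09%. These shares rest on few genes and are a description; a match in a window is not a bound site.

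The windows of 4 genes that hold the core are shown. They had the largest falls among the holders picked by the rule for named genes, which is given further below. Erf, mentioned below outside that rule, and Tmem59l, which has the full palindrome, also hold the core. Both fell by more than Fos and are not shown. Each window shown is written 5' to 3' on the strand of its gene, with the element in capitals. The core begins 132 bases before the start of Plk3, 50 before that of Lhx1 and 66 before that of Fos, and Epha2 has the palindrome 33 bases before its start. Plk3 is at chr4:117133914-117134213 on the minus strand, Epha2 at chr4:141300971-141301270 on the plus strand, Lhx1 at chr11:84525485-84525784 on the minus strand and Fos at chr12:85473640-85473939 on the plus strand.
Plk3: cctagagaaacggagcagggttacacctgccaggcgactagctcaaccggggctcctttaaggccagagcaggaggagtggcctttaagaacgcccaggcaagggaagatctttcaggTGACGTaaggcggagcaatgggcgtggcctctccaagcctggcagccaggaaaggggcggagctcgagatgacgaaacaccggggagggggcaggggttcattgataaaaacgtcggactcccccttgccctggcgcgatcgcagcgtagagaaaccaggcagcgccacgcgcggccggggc
Epha2: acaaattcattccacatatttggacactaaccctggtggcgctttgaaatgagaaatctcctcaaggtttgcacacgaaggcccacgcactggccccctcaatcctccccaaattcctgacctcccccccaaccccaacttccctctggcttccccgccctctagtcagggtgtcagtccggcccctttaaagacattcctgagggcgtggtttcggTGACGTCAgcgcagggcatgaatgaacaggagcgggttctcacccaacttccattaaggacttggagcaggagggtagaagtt
Lhx1: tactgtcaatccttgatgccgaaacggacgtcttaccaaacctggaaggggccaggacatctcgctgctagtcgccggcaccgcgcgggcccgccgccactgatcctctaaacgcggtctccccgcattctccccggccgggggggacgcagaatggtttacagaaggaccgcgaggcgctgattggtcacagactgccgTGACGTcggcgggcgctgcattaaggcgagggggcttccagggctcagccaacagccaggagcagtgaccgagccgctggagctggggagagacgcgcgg
Fos: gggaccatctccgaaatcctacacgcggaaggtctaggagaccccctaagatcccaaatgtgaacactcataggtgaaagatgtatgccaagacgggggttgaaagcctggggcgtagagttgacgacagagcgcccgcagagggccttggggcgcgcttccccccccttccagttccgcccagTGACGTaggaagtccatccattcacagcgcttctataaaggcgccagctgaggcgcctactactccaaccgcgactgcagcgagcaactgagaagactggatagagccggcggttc

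Of 31 stem cell genes tested, 7 were in the set: Egr2 and Etv5, given above, and Lhx1, Tcl1, Epcam, Itga6 and Cd9. Their median restored share was 0.767 at 2 h, 0.710 at 4 h and 0.817 at 8 h, and 5 of the 7, all but Itga6 and Cd9, met the rule without withdrawal replicate 3. On withdrawal 15 of the 31 were called lower and 6 higher (median -0.28), where 3.83% and 4.21% of all genes were (median 0.06). Lhx1, a LIM homeobox factor linked to stem cell self-renewal, was at 403, 546.5 and 502.5 in maintained cultures, 138, 113 and 91.2 after withdrawal and 219, 214 and 377 at 2 h. At 4 h it was at 272, 407 and 367 and at 8 h at 372, 303 and 343. Every replacement array of Lhx1 lay above every withdrawal array, and at 8 h all 3 were still below the maintained ones (share 0.750). Tcl1, an activator of AKT, was at 1230.5 ± 82.3 in maintained cultures and 572 ± 85.4 after withdrawal, and at 1051 ± 226, 974 ± 98.7 and 1197 ± 58.3 at 2, 4 and 8 h. Its arrays at 8 h all lay above those at 4 h (log2 difference 0.30, SE 0.15, adjusted p = 0.365).

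3 members of this list encode surface proteins used to sort spermatogonial stem cells. Epcam, an adhesion molecule, was at 1759 ± 61.8 in maintained cultures, 826 ± 100.3 after withdrawal and 1330.3 ± 135 at 2 h. Itga6, the laminin receptor subunit, went from 1344 ± 173 to 865, 881 and 528 after withdrawal, and was at 1167 ± 99.5 at 2 h and 971 ± 86.7 at 8 h. Cd9, a tetraspanin, was at 838, 915 and 445 after withdrawal against 1188.5 ± 54.4, and at 1045 ± 114 at 2 h. For both Itga6 and Cd9 withdrawal replicate 3 was well under the other 2 withdrawal arrays. In the same list 6 genes were lowered but outside the set. Among them, Bcl6b, a repressor needed for self-renewal, had a share of 0.469 at 2 h and 0.816 at 8 h, Id4 0.303 and 0.565, Cxcr4 0.250 and 0.580, and Sox2 -0.0475 and 0.119. Of 32 genes for the GDNF receptor and its signalling proteins, none was in the set and 1, Gfra1, was lowered outside it. On withdrawal limma called 1 of these 32 lower and 2 higher, near the shares over all genes of 3.83% and 4.21%.

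Sterol synthesis supplied 5 members of 22 genes tested: Msmo1, Fdps, Sqle, Lss and Fdft1, enzymes on the way from mevalonate to cholesterol. On withdrawal limma called 13 of the 22 lower (median -0.67), where 3.83% of all genes were called lower (median 0.06). Msmo1, a sterol methyl oxidase, was at 2189, 2422 and 2513 in maintained cultures, 1025, 1003 and 728 after withdrawal and 1227, 1546 and 1764.5 at 2 h. It reached 2009, 2288 and 1744 at 4 h and was at 1392, 1330.2 and 1553 at 8 h. The 8 h arrays of Msmo1 thus lay under all 4 h arrays and under all maintained arrays. Lss, which makes lanosterol, was at 756 ± 86.8 in maintained cultures, 439 ± 13.5 after withdrawal, 687 ± 197 at 2 h, 749.8 ± 132 at 4 h and 561 ± 43.6 at 8 h.

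The other 3 enzymes had the same order of times from 4 h on. Fdps, which makes farnesyl diphosphate, had restored shares of 0.704, 0.511 and 0.408 at 2, 4 and 8 h. Squalene synthase, Fdft1, had 0.661, 0.655 and 0.371, and squalene epoxidase, Sqle, 0.578, 0.778 and 0.522. The median over the 5 was 0.661 at 2 h, 0.778 at 4 h and 0.451 at 8 h. At 8 h all 5 had every array below every maintained array. So had 40 of the 105 genes, 73.4% of the other lowered genes and 10.8% of all genes. All 5 had a negative 8 h minus 4 h difference (median -0.21), as had 18 of the 22 genes of the list (median -0.26, against 0.05 over all genes). Over all genes tested, 43.5% were negative. With quantile normalization the counts were 4 of 5 and 17 of 22, beside 48.4% of all genes, and the median of the 5 was -0.12. With arrays shifted to 1 median they were 5 of 5 and 21 of 22, but 61.9% of all genes were then negative, and the median of the 5 was -0.35. Without 4 h replicate 3 that median was -0.36, and without 4 h replicate 1 it was -0.16. Without 4 h replicate 1, 4 h replicate 2 or 8 h replicate 1, 4 of the 5 were negative. For Msmo1, Lss and Sqle the 8 h arrays all lay below the 4 h arrays, as they did for 9.17% of all genes. None of the 5 passed the test: the differences were -0.49 for Msmo1 (SE 0.16, adjusted p = 0.231) and -0.40 for Lss (SE 0.18, adjusted p = 0.317). Without withdrawal replicate 3 only Lss of the 5 met the rule, because the others then had too small a fall or too small a share. The place of the other 4 in the set therefore rests on that array, whereas their 8 h minus 4 h differences do not use it. It was not the only such setting. Msmo1, Sqle and Fdft1 also dropped out without 2 h replicate 3, Sqle and Fdft1 with quantile normalization, and Lss with a constant of 64.

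**Figure D3:**
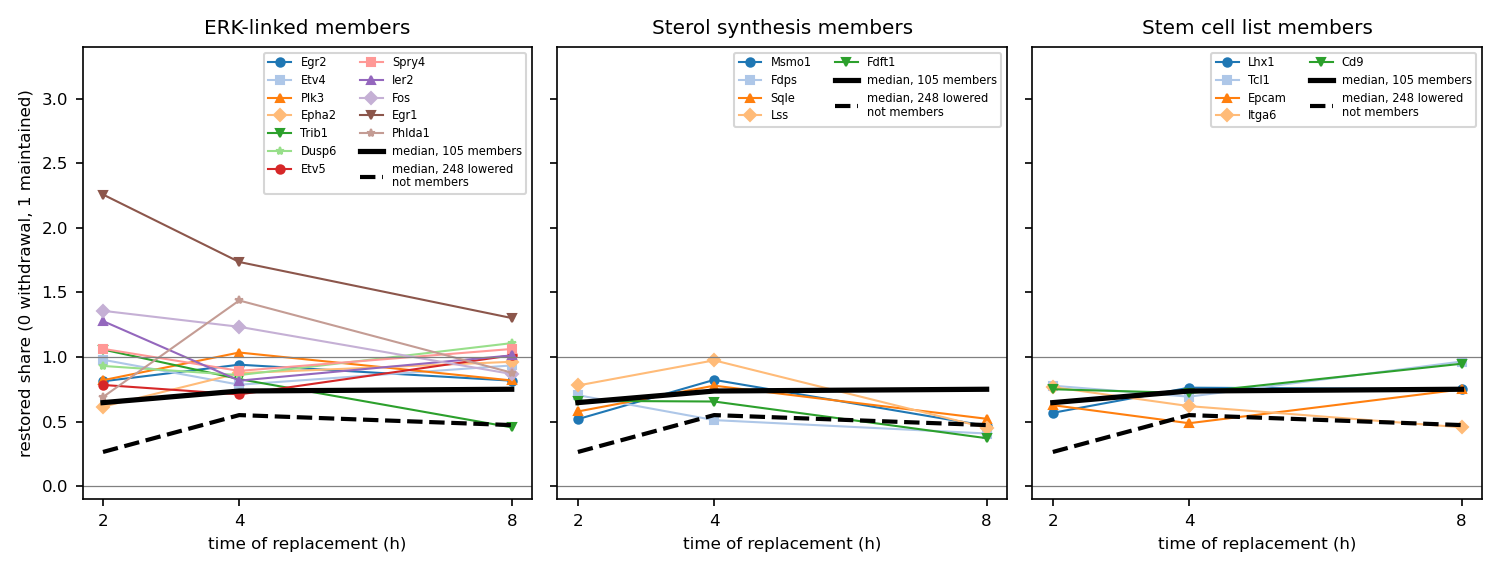
Restored share (0 at the withdrawal mean, 1 at the maintained mean, both on the log2 scale) at 2, 4 and 8 h of replacement; coloured lines are single genes, the solid black line the median of the 105 genes and the dashed line the median of the 248 lowered genes outside the set. Egr1 falls from 2.26 to 1.30, the 5 sterol genes end between 0.371 and 0.522, and the 12 ERK-linked genes except Trib1 end above 0.8.

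The remaining lists held 1 or 2 members or none. Pcna, the sliding clamp of DNA replication, was 1 of 27 G1/S genes. It was at 6554 ± 779 in maintained cultures, 3605, 3714 and 1969 after withdrawal and 4444 ± 426 at 2 h, and was still at 4227 ± 272 at 8 h (share 0.445). Zfp36l2, which targets mRNAs for decay, was at 1319 ± 179.9, then 1052, 877 and 462, and at 1066 ± 13, 1345 ± 101 and 1242 ± 110.2 at 2, 4 and 8 h. Pmaip1, a BH3-only death protein, was at 676 ± 108, then 559.6, 504 and 191, and at 688 ± 72.8 at 2 h. In all 3 of these genes the third withdrawal array was far below the other 2, and none of the 3 met the rule without it. Tgfb1, the TGF-beta ligand, did: it was at 362 ± 124 in maintained cultures, 160.5 ± 42.2 after withdrawal, 259.6 ± 42.8 at 2 h, 187 ± 13.6 at 4 h and 281 ± 10.2 at 8 h.

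Most of the set, 78 genes, was in none of the 21 lists. Of the 22 genes of the set whose mean after withdrawal was under a signal of 30.5, 20 were among them. Of the 78, 44 met the rule without withdrawal replicate 3. Hebp1, a heme-binding protein, was the 1 gene outside the lists among the 10 largest falls. It was at 150.4, 219.6 and 176 in maintained cultures, at 50.1, 13 and 94.7 after withdrawal and at 96.6, 68.2 and 128.5 at 2 h, where the 2 h and withdrawal arrays overlapped. Slc25a13, a mitochondrial aspartate-glutamate carrier, was at 116 ± 38.7, then 52.3 ± 33 and 98.4 ± 21.1. Rbm24, an RNA-binding protein, was at 212 ± 12.8, then 96.1 ± 31.1 and 192 ± 27.7, and passed the maintained arrays at 4 h with 249.6 ± 11.2. Myt1l, a zinc finger factor known from neurons, was at 49.6 ± 12.3, then 16.1 ± 6.41, 55.4 ± 8.85 at 2 h and 22.4 ± 15.3 at 8 h, a return that was not kept (shares 1.13 and 0.203).

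Further genes of the set were chosen for mention after their values were seen, for their links to signalling or for their course. Erf, an ETS repressor that ERK keeps out of the nucleus, was at 532 ± 45.1 in maintained cultures, 238 ± 55.1 after withdrawal and 364 ± 56 at 2 h, with a share near 0.61 at both 4 h and 8 h. Mapk11, a p38 kinase, was at 209 ± 10.3, then 71.6 ± 24 and 158 ± 62.9, and at 171 ± 9.87 at 8 h. Eif4e, the cap-binding translation factor, was at 1958 ± 162, then 1223, 1504 and 563, and 1599.8 ± 245 at 2 h, and did not meet the rule without the third withdrawal array. Hoxb9, a homeobox factor, was back down at 66.3 ± 25 at 8 h against 62.8 ± 23.2 after withdrawal and 154 ± 12.7 in maintained cultures. Tor4a, a torsin ATPase, was above maintained cultures at 8 h on every array, at 126 ± 20.1 against 83.9 ± 10.8.

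The comparison of 8 h with 4 h of replacement is the 1 comparison between groups whose arrays the rule did not use for the fall or the share. The filter on dim probe sets and the choice of probe set used the mean of all 15 arrays. It asked whether the genes that came back early went on rising or fell again. Limma called none of the 105 genes higher or lower, and none of the 13081 genes (0% called), with a smallest adjusted p of 0.213 in the set and 0.0987 over all genes. At an unadjusted p under 0.05 there were 13 genes of the set, 4 higher and 9 lower (12.4%), and 1942 of all genes, 1165 higher and 777 lower (14.8%). The arrays of 8 h lay wholly above those of 4 h for 13 genes, against 12.3% of all genes, and wholly below for 13, against 9.17%. Each of these is 12.4% of the set, near the share over all genes. The median difference was -0.02 over the set and 0.05 over all genes, and with arrays shifted to 1 median they were -0.17 and -0.09, so the sign of the median over all genes changed with the scaling.

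The 3 largest positive differences came from genes with scattered or dim signal. Rrp9, a protein of the U3 particle that processes ribosomal RNA, was at 329.9, 74.2 and 28.4 at 4 h and 233, 227 and 218 at 8 h (log2 difference 1.12, 95% interval -0.21 to 2.44). Kcna7, a potassium channel, was at 12.6, 34.9 and 18.1 against 13.7, 74.2 and 87.6 (0.83). Acrbp, an acrosome protein of later germ cells, was at 79.2, 69.5 and 17.8 against 86.9, 88.3 and 105 (0.75). The 4 h arrays of Rrp9 lay on both sides of those at 8 h, those of Kcna7 overlapped with 8 h, and 1 array of Acrbp at 4 h was far below the other 2. Sgk3, a kinase activated by PI3K, was at 815 ± 173 against 1266 ± 59.7 (log2 difference 0.65, SE 0.33, adjusted p = 0.367), with all 8 h arrays above those of 4 h. Oxtr, the oxytocin receptor, was at 28.3 ± 15.9 against 47 ± 11.6 (0.57), and Ppfibp2, a liprin, at 163 ± 17.2 against 246 ± 17.8 (0.55, SE 0.17, adjusted p = 0.213). Ppfibp2 had the smallest adjusted p of the set, and its 8 h arrays were all above the 4 h arrays. Tgfb1 differed by 0.55 as well (SE 0.20, adjusted p = 0.261).

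Among the negative differences, Acbd4, an acyl-CoA-binding protein, was at 84.7, 60 and 88.2 at 4 h and 21.2, 21.5 and 106 at 8 h (log2 difference -0.74). Arap2, a GTPase-activating protein, was at 77, 74.2 and 73.6 against 45.4, 75.4 and 15.6 (-0.69), and Fuom, a fucose mutarotase, at 41.3, 58 and 49.6 against 8.2, 15 and 86.5 (-0.62). In these 3 the arrays of 8 h overlapped with those of 4 h. Trib1 differed by -0.64 (SE 0.27, adjusted p = 0.291) and Alg13, of N-linked glycosylation, by -0.62, at 63.9 ± 2.66 against 36.2 ± 5.01 (SE 0.22, adjusted p = 0.24). Vma21, an assembly factor of the proton pump, was at 237 ± 26.6 against 157 ± 8.53 (-0.55, SE 0.22, adjusted p = 0.283). Trib1, Alg13 and Vma21 had all 8 h arrays below all 4 h arrays. Of the 12 ERK-linked genes 6 differed downwards and 6 upwards, with a median of -0.06 that was 0.00 with quantile normalization, -0.20 with arrays shifted to 1 median and -0.13 without 8 h replicate 3. Phlda1 (-0.42, SE 0.14, adjusted p = 0.231) and Plk3 (-0.43, adjusted p = 0.407) were among the lower, and Dusp6 (0.41, adjusted p = 0.449) and Etv4 (0.34, adjusted p = 0.603) among the higher. The summed fibroblast markers were in like ranges at 4 h and 8 h, as given above. The 3' to 5' ratio of beta-actin differed more: it was 1.12, 1.52 and 1.75 at 4 h and 1.10 to 1.18 at 8 h, and that of GAPDH reached 1.05 at 4 h and 0.822 at 8 h. The part of RNA quality in the 8 h and 4 h differences was not tested.

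**Figure D4:**
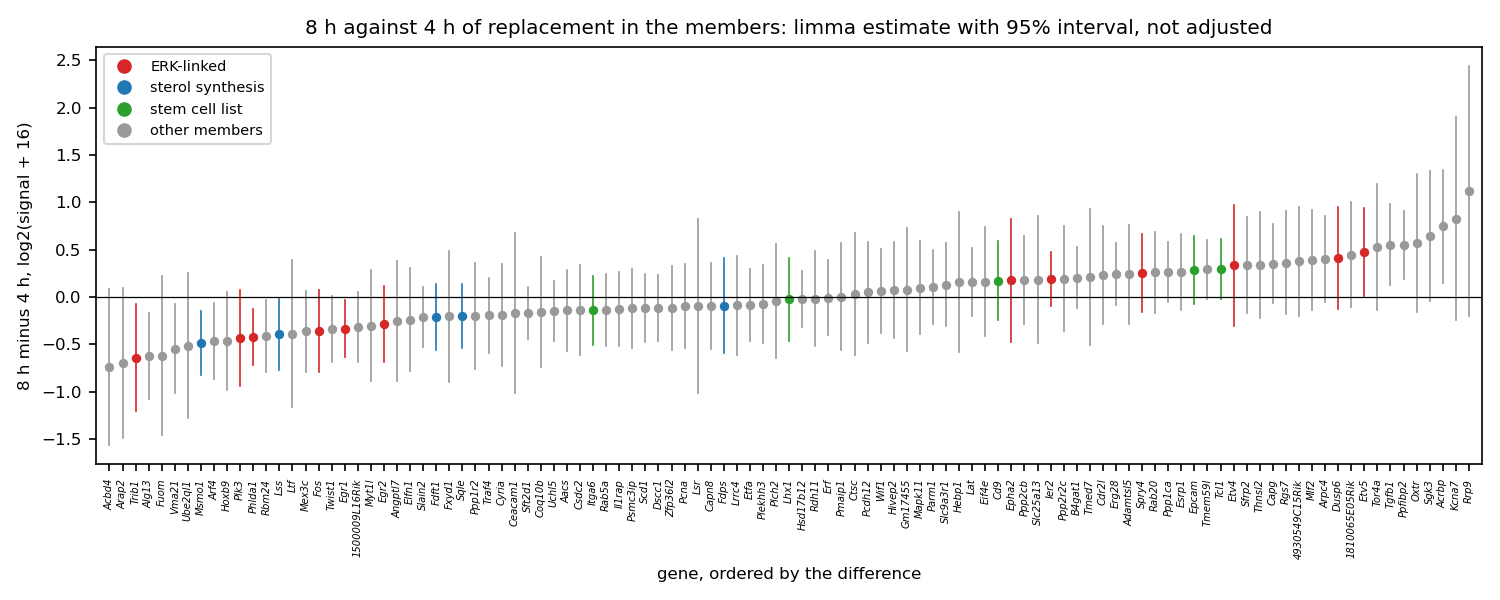
Log2 difference of 8 h against 4 h of replacement for each of the 105 genes, in order, with the 95% interval of the limma estimate, not adjusted for the number of genes. ERK-linked genes (red) lie on both sides of 0, from Trib1 at -0.64 to Etv5 at 0.47, and the 5 sterol genes (blue) all lie below 0.

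How far single arrays decided membership differed between the groups of genes. Without withdrawal replicate 3, 43 of the 105 genes dropped out, 14 because the fall became too small, 10 because the share did and 19 for both. The lowest share without it was that of Tmed7, a secretory pathway protein singled out for this after its values were seen, at -0.0939 against 0.535 with it. At 2 h, replicate 3 was the highest of the 3 arrays for 57 of the 105 genes (54.3%), for 62.5% of the other lowered genes and for 34.0% of all genes. Without it the rule found 87 genes, of which 71 were in the set. That array also had the lowest summed fibroblast signal, 6099, and the part of cell makeup in these values was not tested. Leaving out withdrawal replicate 1 or 2 gave 213 and 195 genes. Leaving out a 4 h or 8 h array could not change membership, because the rule does not use those arrays. The genes that met the rule with any 1 of the 15 arrays left out numbered 28. They included Egr2, Plk3, Trib1, Ier2, Fos, Dusp6, Spry4, Etv4 and Etv5, which are 9 of the 12 ERK-linked genes, and Tcl1 and Epcam.

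**Figure D5:**
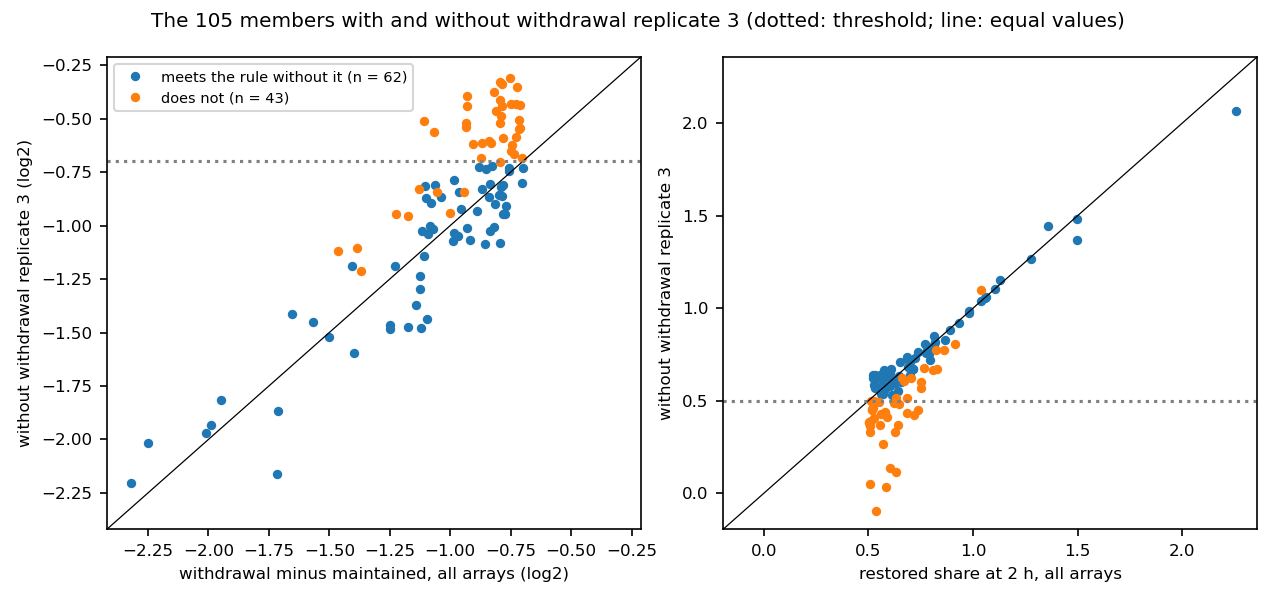
Log2 fall on withdrawal (left) and restored share at 2 h (right) of the 105 genes with all arrays on the horizontal axis and without withdrawal replicate 3 on the vertical axis; the dotted line is the threshold of the rule and the thin line marks equal values. The 62 genes that still meet the rule are blue and the 43 that do not are orange, and most of the orange points lie at falls under 1 or shares near 0.5.

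Other probe sets of the same genes were not used by the rule. For 38 of the 105 genes a further probe set passed the filter on dim signal, 57 in all. Of these 44 were below 0 on withdrawal, 42 above 0 at 2 h against withdrawal and 37 both, where 27.5% of all genes were both, and 13 met the rule themselves. They measure the same arrays, and so are no separate samples. Both other probe sets of Etv5 met the rule, as did all 3 others of Spry4 and the single other ones of Egr2 and Lhx1. The other probe set of Etv4 fell by 0.63 on the log2 scale, short of the threshold, with a share of 0.995. Those of Epcam and Itga6 did not fall on withdrawal, at log2 differences of 0.07 and 0.51, and none of the 3 of Fdft1 or the 2 of Lss met the rule. The median genomic span of the 105 genes in RefSeq was 15700 bases, against 24122 for the other lowered genes and 22498 for all genes tested with a value.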

How the data were processed

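RNA of 15 samples was measured on 1 single-colour array each. Per the submitters' processing notes, the authors computed MAS5 signal, so the deposited values are intensities on a linear scale. Neither the MAS5 version nor the scaling target is given in the sources used here. Every array had the same mean over its middle 96% of values. Names came from GEO's annotation of the platform, control probe sets were dropped, and probe sets under a mean signal of about 30.5 were left out. A gene was taken at its probe set with the highest mean log2(signal + 16). Adding 16 shrinks the fold of a dim gene.

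A single limma model (version 3.58.1, under R 4.3.3) held the means of the 5 groups, with 10 residual degrees of freedom and moderated variances that followed signal. Tests were two-sided, with Benjamini-Hochberg adjustment over 13081 genes and a threshold of 0.05. The number of arrays limits precision: an exact test of 3 arrays against 3 cannot give a p under 0.1. The median standard error of an 8 h minus 4 h difference was 0.19. The scripts were tested on simulated data. Values with ± are the mean and SD of 3 arrays.

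The members, the 21 gene lists and the rules were chosen with earlier results of these data known. The rule for named genes took, among members, the 10 largest falls, the 8 highest shares at 2 h among falls of at least 1, the 6 highest and 6 lowest 8 h minus 4 h differences, members of the lists, and the genes next to each threshold. Non-members of 7 lists were added as examples. Replicate numbers were shared between groups. Same-numbered arrays did not deviate together throughout: correlations were -0.15 to 0.36 over 30 pairs, 7 of them above 0.1. They reached 0.363 for maintained with 4 h and 0.254 for withdrawal with 2 h, and were -0.0941 to -0.0098 for 4 h with 8 h. No pairing was used in the main model. Where RefSeq holds several promoter windows for a symbol, the first was read. Alternatives covered the constant, the scaling, the filter, the probe set of a gene, the variance model, array weights, a replicate block, the thresholds and each array left out. Results on the share at 2 h and on the ERK-linked and sterol genes were added to them after the data were seen.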

Additional observations from a re-analysis of the deposited data

How the results depend on the processing

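The count of 105 genes depended on the settings of the rule. It was 56 with a constant of 64, 173 with arrays shifted to 1 median, 41 with a fall of at least 1 and 43 with a share of at least 0.7, and 87 to 213 with 1 array left out. None of the 105 genes was called at 8 h against 4 h under any alternative run in limma. Over all genes, 2 were called with arrays shifted to 1 median, 278 with array weights (128 higher, 150 lower) and 0 to 63 with 1 array left out: 63 without 4 h replicate 1 and 16 without withdrawal replicate 3. Outside the set, the sterol gene Idi1 was called lower with array weights (log2 difference -0.70, adjusted p = 0.0216). The median share at 8 h was 0.729 with quantile normalization, 0.645 with arrays shifted to 1 median and 0.686 to 0.772 with 1 array left out. The median share at 4 h ranged from 0.665 to 0.791 and that at 2 h from 0.610 to 0.717 when 1 array was left out. The median 8 h minus 4 h difference was -0.166 with arrays shifted to 1 median and -0.058 to 0.0451 with 1 array left out. For the sterol genes the median share at 8 h was 0.34 to 0.518 over the scalings and 0.364 without withdrawal replicate 3. For the ERK-linked genes it was 0.875 with arrays shifted to 1 median and 0.906 to 0.995 with 1 array left out. With the replicate number as a block, the rule found 112 genes, 104 of them in the set, and no gene was called at 8 h against 4 h. The other comparisons were not fitted with the block.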
